A study of Mus musculus with 40 samples.

Results

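The transcriptome of the aorta was compared between male calcineurin (Cn)-sufficient mice after 6 h of angiotensin-II (Ang-II) and their untreated counterparts. The comparison comprises 5 of the 40 libraries of the series, chosen by their labels: 3 Cn-Ctl libraries at 6 h and 2 untreated Cn-Ctl libraries (replicates 2 and 3). Both groups carried the genotype CnB1-flox;Myh11-CreERT2-neg, that is, floxed alleles of Ppp3r1, which encodes CnB1, the regulatory subunit of Cn, without the tamoxifen-inducible Cre that the Myh11 promoter drives in smooth muscle, so that Cn was intact. The methods also name mice with unfloxed Ppp3r1 and the Cre as Cn-Ctl, and the labels, followed here, do not list any among these libraries. All mice had received 1 mg of tamoxifen a day for 5 days, at 10 to 12 weeks of age per the methods, and were used after 6 weeks. Ang-II was infused at 1 µg/kg/min by subcutaneous osmotic minipump, and treated Cn-Ctl mice were kept only if their systolic pressure had passed 130 mmHg. Per the methods, control mice had surgery without a pump, so the pump and the peptide cannot be told apart. Each library pools 3 aortas from which the perivascular tissue and the adventitia had been stripped. The other groups of the same genotype experiment (22 libraries) serve only for the test at other times (Cn-Ctl, Ang-II for 2 h, n = 3, and 24 h, n = 2) and in the other genotype (SM-Cn-/-, floxed Ppp3r1 with the Cre, untreated and at 6 h, n = 3 each).

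Ang-II acts mainly through the AT1 receptor, a Gq-coupled receptor that raises calcium in smooth muscle cells, activates MAP kinases and the calcium-dependent phosphatase Cn, and causes contraction. Its infusion raises blood pressure, and it releases aldosterone and other hormones, so that in the vessel wall receptor signalling, stretch, and circulating hormones act together. Immediate early transcription factors are induced first, and genes of the cytoskeleton, the matrix, and growth factor signalling follow.

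Values below are in signal, the deposited unit, in which a gene's assigned reads, with 0.5 added, are given relative to the scaled size of the library (CPM scale). The untreated libraries held 6565372 and 5268664 assigned reads, and the 6 h libraries held 5577875, 6609595, and 3401706. The shallowest one, 6 h replicate 3, stood apart from the other two: the median absolute log2 difference was 0.54 and 0.532 to replicates 1 and 2, against 0.286 between those and 0.301 between the untreated libraries. It lay at 60.57 on the first principal component of the experiment (19% of the variance), on which replicates 1 and 2 lay at -17.1 and -20.09. The median SD of a gene was 0.395 log2 units at 6 h and 0.213 in the untreated group, and the median SE of a log2 fold change was 0.362. Replicates are separate pools, and all pairs differed by more than read sampling, with a chi-square per degree of freedom of 10.39 in the untreated group and 12.68 to 31.39 at 6 h. With 2 libraries against 3, an exact permutation test of a single gene cannot give a p below 0.1, so the tests rest on a limma fit that shares the spread among the genes and all 8 groups of the experiment.

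In this fit 572 of 14424 protein-coding genes (3.97%) differed at 6 h at an adjusted p under 0.05 (limma, Benjamini-Hochberg). Of these, 392 (2.72%) rose and 180 (1.25%) fell (in bulk tissue, a change in the number of cells of a type and in the RNA per cell cannot be told apart), and 415 changed more than 2-fold (297 higher, 118 lower). The median log2 fold change over all genes was -0.003. At an unadjusted p under 0.05 there were 2420 genes. In 2503 genes (17.4%) the 3 treated libraries all lay above both untreated ones, and in 2395 genes (16.6%) they all lay below. Of the 572 called genes, 560 were without overlap and had a mean signal of at least 5 in a group. A lack of overlap, where given below for called genes, therefore adds little to the call. The calls leaned on the untreated pair. Without untreated replicate 2, 175 genes were called, without untreated replicate 3, 185, and without 6 h replicate 3, 372. Of the 572 calls, 105 (90 higher, 15 lower) passed in each of the 5 fits that leave out 1 library, and these are called stable calls below. With quantile normalization the 610 calls divided into 344 higher and 266 lower, a more even split.

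**Figure D1:**
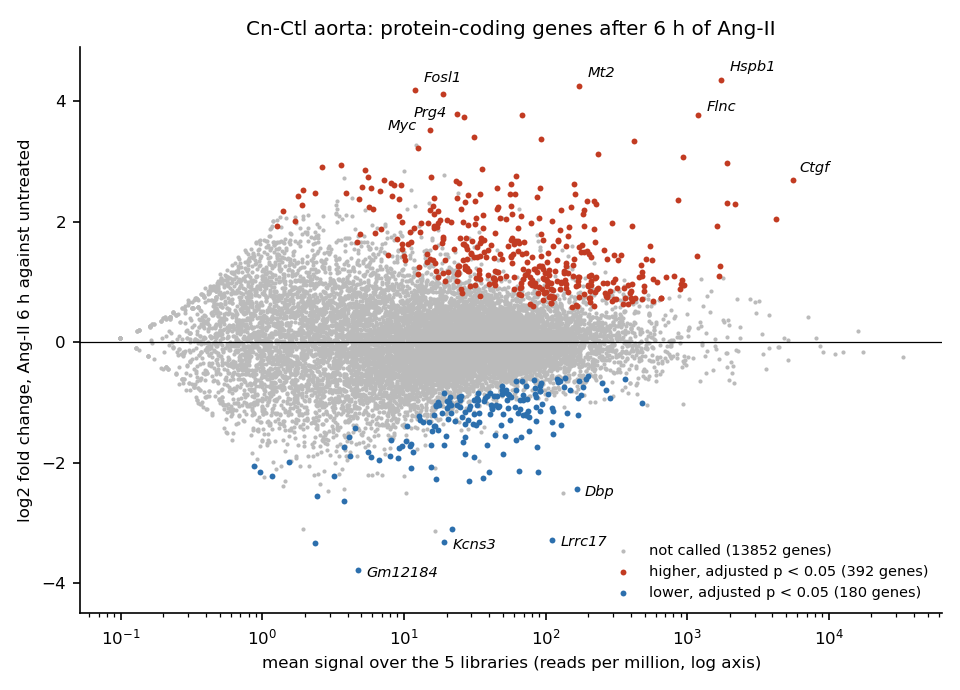
Log2 fold change at 6 h (vertical axis) against the mean signal over the 5 libraries (horizontal log axis) of the 14424 protein-coding genes. Each point is a gene. The 392 genes called higher and the 180 called lower are coloured, with Hspb1, Mt2, and Fosl1 at the top.

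The highest rises belonged to a small heat shock protein, a metallothionein, and genes of AP-1, the cytoskeleton, and growth factor signalling. Hspb1 (HSP27, chr5:135887919-135889563, plus strand, GRCm38), a chaperone that binds actin, had a signal of 127 and 142 in the untreated libraries and of 2206, 3010, and 3211 at 6 h, a 20.5-fold rise (log2 fold change 4.36, SE 0.35, adjusted p 3.5e-07 by limma). Mt2, a metallothionein that binds zinc, rose from 12.02 and 15.4 to 217, 228, and 395 (log2 fold change 4.26, SE 0.36, adjusted p 4.3e-07). In both genes every treated library lay far above both untreated ones, though a lack of overlap was a condition of the ranking that follows. The 15 highest rises in rank order were Hspb1, Mt2, Fosl1, Gm9817, Arc, Flnc, Pgf, Prg4, Myc, Sphk1, Fosb, Errfi1, Tnfaip6, Thbs1, and Cryab, of which all but Fosl1 were stable calls. Sphk1, the kinase that makes sphingosine-1-phosphate, rose from 2.99 and 4.29 to 25.8, 34.1, and 89.2 (log2 fold change 3.41, SE 0.50, adjusted p 0.00025). Gm9817, a predicted gene without a known role, rose from 1.38 and 1.00 to 26.4, 46.0, and 19.9 (adjusted p 0.00028). The fall by 3.28 on the log2 scale of Lrrc17, a secreted leucine-rich repeat protein, was the best supported decrease, from 249 and 225 to 45.4, 22.4, and 13.3 (SE 0.38, adjusted p 2.9e-05).

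Other genes that fell include a potassium channel subunit, genes of muscle, and a receptor for axon guidance. Kcns3, a modulatory subunit of voltage-gated potassium channels, went from 45.4 and 35.9 to 9.59, 4.76, and 0.784 (log2 fold change -3.32, SE 0.60, adjusted p 0.002). Unc5c, a netrin receptor, went from 78.6 and 69.3 to 22.8, 21.3, and 8.62 (log2 fold change -2.16, SE 0.38). Neither gene overlapped between the groups, which was a condition of choosing the lowest changes and adds no support. Unc5c was a stable call, whereas Kcns3 lost its call in 1 of the 5 fits. Tcap (telethonin), a sarcomere protein, had 178 and 152 in the untreated libraries and 48.0, 25.7, and 39.3 at 6 h (log2 fold change -2.16, adjusted p 0.011). Syt15 (-2.31) and Nrep (-2.25) also fell and were stable calls, while the falls of Gm12184 (-3.78), Lmntd1 (-2.63), Pla2g4e (-2.54), Akr1c14 (-2.27), and Capn3 (-2.22) each failed in 3 or more of those fits. For Mup2, a major urinary protein with near-identical copies, the 3 treated libraries held 0 reads, and the untreated signal was 6.77 and 4.65. Set against 3 reads per library, it was at least 8.71-fold lower at 6 h. The untreated SM-Cn-/- libraries also held 0 reads of Mup2 (signal 0.0747, 0.128, and 0.112). The fall thus rests on a low signal in the 2 untreated Cn-Ctl pools, and its cause was not tested.

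**Figure D2:**
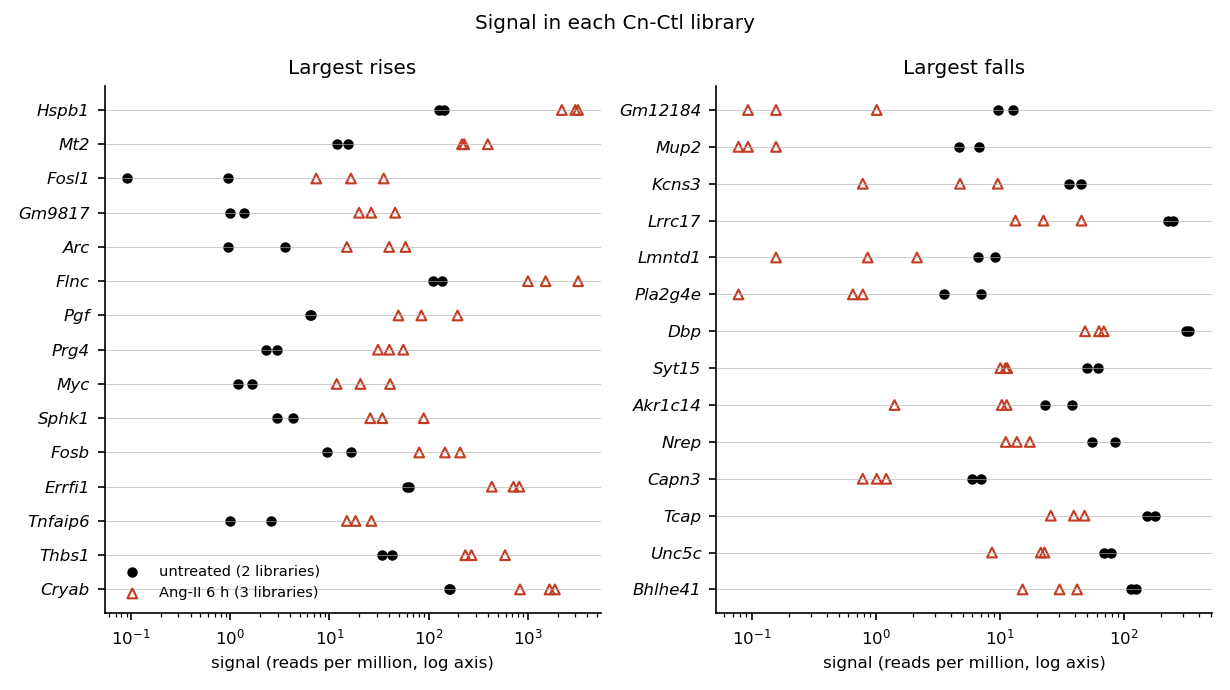
Signal in each Cn-Ctl library (log axis) for the 15 genes with the highest and 14 of the 15 with the lowest log2 fold change among called genes without overlap. Points are libraries, untreated (n = 2) or at 6 h (n = 3), and a library with 0 reads is drawn at the signal of 0.5 read. By the choice of genes, the treated points of every row lie to one side of the untreated ones.

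Most immediate early genes, the greater part of which encode transcription factors that link receptor signals to gene expression, were still high at 6 h. Of the 29 measured of the list, which also holds Arc, Btg2, Zfp36, and others that are not transcription factors, 21 rose and 0 fell, against 2.72% and 1.25% of all genes, and the median log2 fold change was 1.39. Among AP-1 subunits, Fosb had a signal of 9.54 and 16.5 in the untreated libraries and 80.4, 146, and 208 at 6 h (log2 fold change 3.37, SE 0.54, adjusted p 0.00058). Fosl1 went from 0.947 and 0.0912 to 7.36, 16.5, and 35.3 (4.19, SE 0.86, adjusted p 0.0058), and Fos from 16.1 and 28.0 to 166, 169.6, and 74.1 (2.56, SE 0.48, adjusted p 0.0026). The treated values were above both untreated values in all 3, with a spread of more than 2-fold among the treated libraries of each. Jun rose little (log2 fold change 0.82, SE 0.21), and Jund did not pass (116 and 110.3 against 81.3, 66.3, and 197, adjusted p 0.91).

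Outside AP-1, Myc, a driver of growth and ribosome production, rose from 1.68 and 1.19 to 11.8, 20.5, and 40.9 (log2 fold change 3.53, SE 0.55, adjusted p 0.00042), and Arc, a neuronal immediate early gene, from 0.947 and 3.56 to 14.99, 40.0, and 58.5 (3.78, SE 0.58). The orphan nuclear receptor Nr4a3 rose from 10.8 and 19.6 to 78.3, 100.3, and 71.9 (2.46, SE 0.30, adjusted p 4.6e-05), and Egr1, a zinc finger factor, from 78.1 and 84.6 to 308, 405, and 215 (1.87, SE 0.44). In all 4 genes, as in nearly all called genes, no treated library reached down to the untreated range. Among the Krüppel-like factors, Klf6 rose from 239.8 and 281 to 559.6, 712, and 786 (1.39), Klf4 rose by 1.33, and Klf2 by 1.42 on the log2 scale. Egr2, Egr3, and Junb did not pass (adjusted p 0.22, 0.55, and 0.11), and all were low, with at most 15.1 on average at 6 h.

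Of the 21 rises, 8 were stable calls: Arc, Myc, Fosb, Maff, Nr4a3, Btg2, Klf6, and Klf4. The number that rose was 9 without untreated replicate 2 and 13 without untreated replicate 3. Maff, a small Maf factor, and Zfp36 (tristetraprolin), which binds AU-rich mRNAs, are shown with the 250 bases before their starts, since each holds 1 match to a cAMP response element or a CArG box, motifs of signal-regulated transcription. Maff rose from 12.3 and 14.5 to 74.6, 86.9, and 95.8 (2.63, SE 0.32, adjusted p 4.2e-05), and Zfp36 had a log2 fold change of 1.19 (SE 0.28, adjusted p 0.016). The capitals mark a cAMP response element (TGACGTCA, searched on both strands) 29 bases before the start of Maff, found in 1.55% of 32851 promoters of this length, and a CArG box, the core of the binding site of serum response factor, 58 bases before that of Zfp36, found in 1.47%. Of the other motifs searched in the same way, TGANTCA (AP-1) occurs in 6.75% of the promoters, CACGTG (E-box) in 6.02%, ACGTG (hypoxia response element core) in 16.6%, AGAACA (glucocorticoid receptor half-site) in 16.1%, GGAAA (NFAT core) in 55.6%, and an NF-kB site (GGGNNTTCC) in 4.98%. The CACGTG and ACGTG motifs overlap, and the promoter of Maff also holds CACGTG, and with it ACGTG on both strands, 191 bases before the start, which is not in capitals. The sequences are from RefSeq on GRCm38.p6, and Maff has 3 listed promoters, of which 1 is shown.
Maff chr15:79347270-79347519, plus strand: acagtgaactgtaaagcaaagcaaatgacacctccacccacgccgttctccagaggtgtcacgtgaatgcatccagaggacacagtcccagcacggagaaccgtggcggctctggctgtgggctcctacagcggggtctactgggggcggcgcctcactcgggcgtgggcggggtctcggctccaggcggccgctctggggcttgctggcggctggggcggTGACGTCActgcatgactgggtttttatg
Zfp36 chr7:28379229-28379478, minus strand: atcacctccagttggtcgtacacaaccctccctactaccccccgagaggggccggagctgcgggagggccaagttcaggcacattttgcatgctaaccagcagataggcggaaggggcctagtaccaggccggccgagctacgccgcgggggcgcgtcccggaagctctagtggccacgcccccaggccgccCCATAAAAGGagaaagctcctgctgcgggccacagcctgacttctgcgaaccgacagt

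Negative regulators of signalling rose in part. Of 31 measured, 8 rose and 0 fell, against 2.72% and 1.25% of all genes. The median was 0.505 on the log2 scale, and 1 of the 8 was a stable call. That one was Errfi1 (Mig6), which inhibits the EGF receptor and went from 63.6 and 61.2 to 434, 821, and 716 (log2 fold change 3.34, SE 0.34, adjusted p 7.1e-06). Socs3, which inhibits cytokine receptors, rose from 4.73 and 3.56 to 16.1, 26.0, and 31.5 (2.39, SE 0.44), and the MAP kinase phosphatase Dusp1 from 169.8 and 192 to 349, 314, and 294 (0.82, SE 0.19). All 3 were without overlap between the groups. Spry4 (1.65), Trib1 (1.82), Dusp5 (1.98), and Dusp10 (1.17) rose as well, while Dusp6, a phosphatase of ERK, was at 15.2 and 16.9 and 17.2, 21.9, and 13.3 (adjusted p 0.93). Without untreated replicate 2 there were 2 rises in the list, and without untreated replicate 3 there were 3.

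Rcan1, a feedback inhibitor of Cn whose transcription Cn and NFAT induce, was the only one of 20 measured Cn and NFAT genes to be called, against 3.97% of all genes. It had 27.6 and 45.4 in the untreated libraries and 85.0, 128, and 179 at 6 h (log2 fold change 1.80, SE 0.36, adjusted p 0.0049). Each treated value was above both untreated ones, and the call was lost in 1 of the 5 fits that leave out a library. Ppp3r1 had a signal of 104 and 78.8 against 98.2, 116, and 48.1 (-0.14, SE 0.36, adjusted p 0.9), with the groups overlapping and 6 h replicate 3 the lowest of the 5. The catalytic subunit genes Ppp3ca (-0.29, SE 0.17) and Ppp3cb (-0.41, SE 0.24) did not pass, nor did the transcription factors Nfatc1 (0.43) and Nfatc2 (0.52).

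Genes induced by glucocorticoids often rose, with 11 of 26 called higher and 0 lower, against 2.72% and 1.25% of all genes. The median log2 fold change was 1.39, and 25 members were above 0. Fkbp5, a co-chaperone of the glucocorticoid receptor, had 46.5 and 33.5 in the untreated libraries and 139, 244, and 179 at 6 h (log2 fold change 2.19, SE 0.31, adjusted p 0.00019). Tsc22d3 (GILZ), which restrains NF-kB and AP-1, went from 54.1 and 54.5 to 216, 232, and 174 (1.91, SE 0.33), and Sgk1, a kinase induced by glucocorticoids and aldosterone, from 53.8 and 87.7 to 221, 338, and 239 (1.92, SE 0.28). In these 3 genes the treated libraries were all above the untreated ones, and their calls were stable, as were those of Map3k6, Errfi1, Mt1, and Mt2. Mt1 rose from 36.3 and 37.7 to 207, 182, and 325 (2.62, SE 0.34, adjusted p 5.7e-05), and with Mt2 and the zinc importer Slc39a14 (0.83) it made 3 rises among 7 measured metallothionein and zinc transport genes. Zbtb16 (23.5 and 52.6 against 74.0, 115, and 174, adjusted p 0.058) and Per1 (0.67, adjusted p 0.19) fell short. The list had 7 rises without untreated replicate 2. In SM-Cn-/- aortas, 17 of the 26 passed at 6 h (338 of all genes, 2.34%, were called there). None of the 26 was among the 0.0624% of all genes whose response differed between the genotypes at an adjusted p under 0.05.

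The circadian clock genes moved in both directions. Of 21 measured, 4 were lower and 1 higher, against 1.25% and 2.72% of all genes. Dbp, a PAR bZIP activator under direct clock control, fell from 314 and 336 to 68.6, 48.5, and 62.9 (log2 fold change -2.44, SE 0.39, adjusted p 0.00052). Bhlhe41 (Dec2), a clock repressor, fell from 125 and 114 to 41.8, 30.2, and 15.2 (-2.13, SE 0.38, adjusted p 0.0016), and Per3 from 205 and 198 to 85.8, 76.4, and 72.2 (-1.37, SE 0.35, adjusted p 0.029). These genes did not overlap between the groups, and Dbp and Bhlhe41 were stable calls, but the falls in the list numbered 2 without either untreated library or without 6 h replicate 2. Hlf, a relative of Dbp, fell by 1.62 on the log2 scale (SE 0.44, adjusted p 0.039), and Nfil3, the repressor that competes with Dbp for D-boxes, rose by 2.45 (SE 0.65, adjusted p 0.033). The calls of Per3, Hlf, and Nfil3 held in 1, 1, and 2 of the 5 fits that leave out a library. The core genes Arntl (0.364 and 0.821 against 7.92, 5.23, and 2.35, adjusted p 0.12), Per2 (-0.15), and Nr1d1 (-0.50) did not pass. The hour at which the aortas were collected is not given in the sources used here, so that time of day and hours of Ang-II cannot be told apart.

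The promoter of Per3 is shown because it carries 2 copies of the D-box (TTATGTAA, in capitals, searched on both strands), the element that Dbp, Hlf, and Nfil3 are known to bind. They begin 205 and 158 bases before the start, and the letters occur in 0.819% of the 32851 promoters. The promoters printed in this report were picked for such matches, and a link between the motifs and the changes was not tested.
Per3 chr4:151044666-151044915, minus strand: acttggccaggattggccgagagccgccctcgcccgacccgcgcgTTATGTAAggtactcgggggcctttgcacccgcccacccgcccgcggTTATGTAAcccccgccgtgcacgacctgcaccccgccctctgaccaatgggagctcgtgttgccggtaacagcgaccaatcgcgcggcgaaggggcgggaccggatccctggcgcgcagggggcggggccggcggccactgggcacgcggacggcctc

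Heat shock proteins and their cofactors included 10 of 22 that were higher and 0 lower, against 2.72% and 1.25% of all genes. All 22 were above 0, and the median log2 fold change was 0.90. The list's summed signal was 4963 and 5635 in the untreated libraries and 16840, 18130, and 19230 at 6 h. Besides Hspb1, the small heat shock protein Cryab rose from 161 and 164 to 835, 1658, and 1876 (log2 fold change 3.08, SE 0.32, adjusted p 7.1e-06). Hspa8, the constitutive HSP70, went from 1321 and 1640 to 6318, 5313, and 6697 (2.05, SE 0.28, adjusted p 0.00011), and Hsp90aa1 from 566 and 634 to 1997, 2440, and 2418 (1.93, SE 0.23, adjusted p 3.5e-05). The rises of these genes and of Stip1, which links HSP70 to HSP90 (1.66, SE 0.24), were stable calls.

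By contrast, some of the genes that are known to depend most on stress did not pass the test. Hspa1b, an inducible HSP70, had 74.2 and 90.4 in the untreated libraries and 151, 158, and 289 at 6 h (adjusted p 0.17), and its near-identical neighbour Hspa1a, with which it shares reads, had 56.1 and 101 and 69.6, 111, and 199 (adjusted p 0.62). Bag3, a cofactor of HSP70 in the removal of damaged proteins, was at 104 and 97.9 and 117, 118, and 175 (adjusted p 0.34). Bag3 and Hspa1b did not overlap between the groups, yet neither passed the test. Hsph1 (HSP110) and Dnajb1 (HSP40) still passed, with log2 fold changes of 1.54 (SE 0.37) and 1.47 (SE 0.37). Their calls were not stable and held in 2 and 1 of the 5 fits that leave out a library. The number of rises in the list was 6 without untreated replicate 2, 5 without untreated replicate 3, and 7 without 6 h replicate 3. The promoter of Hsph1, shown for 1 of its 2 listed starts, has a pair of heat shock factor half-sites (TTCNNGAA, in capitals, a palindrome) 33 bases before the start, letters that occur in 7.17% of all promoters.
Hsph1 chr5:149636337-149636586, minus strand: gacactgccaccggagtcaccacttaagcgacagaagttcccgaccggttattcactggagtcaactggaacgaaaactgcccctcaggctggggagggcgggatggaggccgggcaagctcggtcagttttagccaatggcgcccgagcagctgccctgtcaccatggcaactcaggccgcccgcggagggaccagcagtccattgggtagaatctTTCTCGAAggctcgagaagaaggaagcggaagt

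Of 28 genes of the unfolded protein and integrated stress responses, 4 were higher and 0 lower at 6 h (2.72% and 1.25% of all genes), with a median of 0.39. These were Atf3 (43.9 and 58.3 against 120, 189.6, and 199.8, log2 fold change 1.70, SE 0.32), Ppp1r15a (GADD34), which restores translation (1.52, SE 0.27), Asns (1.72), and Atf4 (0.88). The calls of Asns and Atf4 were lost in 4 of the 5 fits that leave out a library. The endoplasmic reticulum chaperone Hspa5 (BiP) had 317 and 318 and 529, 599.9, and 407 (adjusted p 0.079), and the apoptotic factor Ddit3 (CHOP) 29.5 and 32.4 and 23.6, 15.7, and 34.0 (adjusted p 0.54). Hspa5 did not overlap between the groups and missed the threshold, and Ddit3 overlapped.

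Genes of the cytoskeleton were counted in a list of actin-associated and focal adhesion genes and a list of contractile genes, which mark mature smooth muscle. In the first list 9 of 34 were higher and 0 lower, against 2.72% and 1.25% of all genes, with a median log2 fold change of 0.49. Flnc, a filamin that crosslinks actin, rose from 137 and 111 to 1004, 1513, and 3217 (log2 fold change 3.78, SE 0.45, adjusted p 3.5e-05), and Itga5, the fibronectin receptor subunit, from 313 and 357 to 1635, 2202, and 5073 (2.97, SE 0.36, adjusted p 3.7e-05). In both, 6 h replicate 3 was the highest library by more than 2-fold, and the other two were still above both untreated values. Xirp1, an actin-binding repeat protein, rose by 2.29 (SE 0.39), and Actn4, a non-muscle actinin, by 1.27 (SE 0.24). Tpm4, Enah, and Tln1 rose by less than 2-fold. With Flnc, Itga5, and Tpm4 the stable calls number 3, and the list had 3 rises without untreated replicate 2 and 7 without untreated replicate 3.

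Among 24 contractile genes (3.97% of all genes were called) 2 rose, Des (desmin; 158 and 105 against 268, 247, and 584, log2 fold change 1.39, SE 0.38) and Actg2 (enteric actin; 0.85, SE 0.20), and 0 fell. Both calls failed in 3 of the 5 fits that leave out a library. Acta2, smooth muscle actin and an abundant transcript of the wall, had 14590 and 15000 in the untreated libraries and 17580, 16940, and 15790 at 6 h (0.18, SE 0.34, adjusted p 0.86). Myh11, smooth muscle myosin, had 5747 and 5725 and 4283, 4458, and 5447 (-0.29, SE 0.27, adjusted p 0.67). The treated libraries were all a little higher for Acta2 and all a little lower for Myh11, neither beyond the spread the test allows. The list's median was 0.05 as deposited and -0.15 with quantile normalization, which gave 1 rise and 2 falls, so the sign of the median depended on the scaling.

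Targets of serum response factor and of YAP were led by CCN matrix proteins. Ctgf (Ccn2) rose from 959 and 1749 to 8433, 8743, and 7965 (log2 fold change 2.69, SE 0.40, adjusted p 0.00027), and Cyr61 (Ccn1) from 214 and 279.7 to 1368, 1255, and 1179 (2.37, SE 0.27, adjusted p 2.9e-05). Ankrd1, a titin-binding protein, rose from 9.98 and 17.8 to 62.7, 44.0, and 94.5 (2.22, SE 0.41). The groups were apart in all 3 genes, the rises of Ctgf and Cyr61 were stable calls, and the other 11 measured members did not pass. Over all genes, 2.72% were called higher.

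The extracellular matrix list with the most calls was that of collagens and elastic fibre genes. Of 33 measured, 11 rose and 0 fell, against 2.72% and 1.25% of all genes, with a median log2 fold change of 0.74. Lox, the lysyl oxidase that crosslinks collagen and elastin, had 109 and 99.6 in the untreated libraries and 412, 550.5, and 309 at 6 h (log2 fold change 1.98, SE 0.32, adjusted p 0.00074). Its relatives Loxl1 (0.84), Loxl2 (0.91), and Loxl3 (1.04) also rose. Of the basement membrane collagens, Col18a1 went from 532 and 623 to 1219, 1627, and 1904 (1.44, SE 0.26), Col15a1 rose by 1.17, Col4a1 by 0.95, and Col4a2 by 0.74. These genes all lay higher in the 3 treated libraries. The fibrillar collagens did not pass, with Col1a1 at 708 and 519 against 1153, 1082, and 889.7 (adjusted p 0.16) and Col3a1 at 1615 and 1501 against 1951, 1788, and 959 (adjusted p 0.96), nor did elastin, Eln (0.34, SE 0.25). Lox alone was a stable call, and the list had 4 rises without untreated replicate 2, 5 without untreated replicate 3, and 2 when only these groups entered the fit.

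Matricellular and hyaluronan genes had fewer calls (5 of 28 higher, 0 lower, against 2.72% and 1.25% of all genes, median 0.72) but steeper ones. Prg4 (lubricin), a lubricating proteoglycan, rose from 2.99 and 2.28 to 55.6, 40.2, and 30.9 (log2 fold change 3.74, SE 0.48, adjusted p 6.7e-05), Thbs1 (thrombospondin 1) from 42.3 and 33.7 to 235, 271, and 589 (3.13, SE 0.41), and the hyaluronan receptor Cd44 from 45.1 and 43.2 to 152, 192, and 326 (2.25, SE 0.30, adjusted p 8.9e-05). Tnfaip6 (TSG-6), which modifies hyaluronan, rose from 2.55 and 1.00 to 14.99, 18.3, and 26.5 (3.22, SE 0.51). All of these 4 were stable calls with no overlap. Has1, a hyaluronan synthase, held 0 reads in both untreated libraries and had 4.75, 2.58, and 1.41 at 6 h, which is at least 5.92-fold higher when set against 3 reads per library. Its call (adjusted p 0.025 by limma) was not stable. Tnc (tenascin C; 207 and 242 against 308, 455, and 564, adjusted p 0.067) and Fn1 (fibronectin; 0.67, adjusted p 0.21) lay higher in every treated library without passing.

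Of 28 matrix proteases and inhibitors, 6 rose and 0 fell, against 2.72% and 1.25% of all genes. Serpina3n, a protease inhibitor and acute phase protein, went from 24.8 and 22.9 to 123, 153, and 114 (log2 fold change 2.41, SE 0.32, adjusted p 7.7e-05) and was a stable call. The urokinase receptor Plaur rose from 1.38 and 5.02 to 12.8, 18.2, and 40.0 (2.74, SE 0.49), urokinase itself, Plau, by 1.73 (SE 0.43), and stromelysin, Mmp3, from 30.7 and 10.5 to 92.1, 104, and 54.1 (2.13, SE 0.51). Adamts1 (1.28) and Serpinh1 (HSP47), the collagen chaperone (0.68), were the others. The list had 2 rises without untreated replicate 2, 3 without untreated replicate 3, and 4 without 6 h replicate 3.

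Growth factor genes moved in both directions, with 7 of 40 higher and 2 lower, against 2.72% and 1.25% of all genes. Pgf, the placental growth factor that binds VEGF receptor 1, rose from 6.48 and 6.30 to 49.6, 84.5, and 196 (log2 fold change 3.77, SE 0.44, adjusted p 3.4e-05). The EGF receptor ligands Hbegf (33.3 and 45.7 against 121, 229.9, and 372, 2.47, SE 0.37) and Ereg (1.92, SE 0.41) rose, and another ligand, Btc, fell from 25.3 and 15.4 to 5.68, 8.196, and 2.98 (-1.82, SE 0.44). The libraries of the groups were separate in each of these genes. Bdnf rose by 1.95 (SE 0.38), and Angpt2, a ligand of the Tie2 receptor, fell from 85.7 and 83.7 to 24.3, 38.6, and 24.3 (-1.56, SE 0.30, adjusted p 0.003). Vegfa was at 34.1 and 50.6 and 64.0, 33.6, and 47.5 (adjusted p 0.88). Pgf and Hbegf were stable calls, Btc passed in 2 of the 5 fits, and the list had 2 calls without untreated replicate 2 and 5 without untreated replicate 3.

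In the TGF-β family 3 of 33 rose and 1 fell, against 2.72% and 1.25% of all genes. The rises were those of Tgfb3 (172 and 152 against 383, 344, and 648, log2 fold change 1.44, SE 0.23), Tgfb2 (1.08, SE 0.20), and the activin antagonist Fstl3 (1.41, SE 0.22). The fall was that of Id2, a target of BMP signals (-0.74, SE 0.21). Tgfb3 and Fstl3 were stable calls, while Id2 passed in 1 of the 5 fits. Tgfb1 did not pass (19.7 and 14.9 against 26.7, 26.6, and 20.8, adjusted p 0.67). Acute phase and STAT3 target genes gave 5 rises among 25 measured: Socs3, the receptor subunits Il4ra (2.12, SE 0.38) and Osmr (33.4 and 36.6 against 85.0, 106, and 105, 1.47, SE 0.23), Cebpd (1.59), and Stat3 (0.84). Osmr, a subunit of the oncostatin M receptor, was the stable call among them.

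Of 23 measured genes in the list of chemokines and cytokines 1 rose, against 2.72% of all genes. It was Ccl9, a chemokine (5.61 and 9.76 against 47.8, 31.6, and 31.8, log2 fold change 2.22, SE 0.40, adjusted p 0.0018). Il6 and Ccl2 were at or under a mean signal of 1.20 at 6 h (adjusted p 0.43 and 0.87), against a limit of 0.437 to 0.94 that 3 reads set in these 5 libraries. Neither passed the test, and at this depth a change at such levels is hard to detect. Il6 held 0 reads in both untreated libraries, and its mean of 0.98 at 6 h lay just above the limit of 3 reads, so a rise was not shown. Of 9 measured adhesion molecules for leukocytes 1 rose, Icam1 (9.69 and 11.4 against 27.5, 26.6, and 18.6, 1.15, SE 0.31). Its call held in 1 of the 5 fits that leave out a library, and Vcam1 did not pass (0.12, SE 0.49). In 38 interferon and antigen presentation genes there were 0 calls in this limma fit, against 3.97% of all genes.

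Within the renin-angiotensin system 12 genes were measured, of which 1 rose and 1 fell, against 2.72% and 1.25% of all genes. The mineralocorticoid receptor Nr3c2 fell from 32.5 and 24.7 to 10.2, 6.01, and 4.23 (log2 fold change -2.07, SE 0.40, adjusted p 0.0035), with no overlap. Lnpep, a peptidase known as the binding site of angiotensin IV, rose by 1.36 (SE 0.37). The calls held in 4 (Nr3c2) and 1 (Lnpep) of the 5 fits that leave out a library. The receptor gene Agtr1a had 2.69 and 2.28 and 1.58, 1.79, and 5.17 (0.01, SE 0.61), a level too low and too variable to show a change. Ace, the converting enzyme, lay higher in each treated library without passing (135 and 164 against 299, 336, and 168, adjusted p 0.18).

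Among vasoactive pathways, Ece1, which activates endothelin, rose from 41.1 and 52.1 to 109.8, 105, and 109 (log2 fold change 1.21, SE 0.20, adjusted p 0.00092) and was a stable call. Nos3, the endothelial nitric oxide synthase, rose from 12.6 and 14.1 to 23.4, 27.1, and 42.2 (1.13, SE 0.31, adjusted p 0.038) but passed in only 1 of the 5 fits that leave out a library. These were the only calls among 36 genes of endothelin, nitric oxide, natriuretic, and adrenergic signalling, against 3.97% of all genes. Edn1 itself did not pass (0.48, SE 0.37). Of 18 prostanoid genes 2 rose, against 2.72% of all genes. Ptgs2 (COX-2) went from 11.9 and 14.3 to 86.0, 128, and 68.2 (2.75, SE 0.55, adjusted p 0.0045), and Ptgis, the prostacyclin synthase, from 546 and 639.6 to 969.5, 1128, and 1195 (0.89, SE 0.22). Their calls held in 4 and 1 of the 5 fits.

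Of 31 calcium and potassium channels and pumps, 1 fell and 2 rose, against 1.25% and 2.72% of all genes. The decrease was that of Cacna1c, the pore subunit of the L-type calcium channel that admits calcium for contraction. It had 106 and 102 in the untreated libraries and 38.3, 54.2, and 43.7 at 6 h (log2 fold change -1.20, SE 0.20, adjusted p 0.00067). The treated libraries all lay far below the untreated ones, the call was stable, and the gene was also lower at 6 h than at 2 h (-1.01, SE 0.17, adjusted p 0.003). Trpv4, a channel opened by stretch and osmotic change, rose from 3.42 and 1.00 to 7.54, 9.13, and 25.2 (2.37, SE 0.52), and Ryr2, a calcium release channel, from 34.7 and 62.9 to 66.6, 111, and 110.2 (0.99, SE 0.26). Both lost their call in 2 or more of the 5 fits. Kcnma1 (BK channel; -0.47, SE 0.23) and Atp2a2 (SERCA2; -0.48, SE 0.22) lay lower in all treated libraries without passing.

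Metabolic and housekeeping lists are given with their counts, against the 3.97% of all genes that were called. Of 35 glycolysis and hypoxia genes 3 rose, the collagen prolyl hydroxylases P4ha2 (52.9 and 46.3 against 105, 118, and 111, log2 fold change 1.162, SE 0.18) and P4ha1 (1.02) and the glucose transporter Slc2a1 (1.12), and the glycolytic enzyme Pfkm fell (-0.96, SE 0.23). Heme oxygenase, Hmox1, was the 1 rise among 27 NRF2 and redox genes (5.17 and 6.48 against 19.6, 14.3, and 56.0, adjusted p 0.043). Besides Myc, the spermidine synthase Srm (1.48, SE 0.35) and the nucleolar helicase Ddx21 (1.12, SE 0.23) rose among 29 genes of polyamines and ribosome biogenesis. The growth arrest and p53 target list had 4 rises of 21, namely Cdkn1a (p21; 1.66, SE 0.36), Btg2, Gadd45g, and Bax. There were 0 calls in each of the lists of cell cycle (32 genes), oxidative phosphorylation (43), cholesterol synthesis (24), and connexins (13), whose medians lay between -0.23 and 0.33. Of 63 ribosomal protein genes 1 fell, Rpl22 (-0.57, SE 0.15). Of the calls in this paragraph, P4ha2, Myc, and Btg2 were stable. Those of P4ha1, Pfkm, and Rpl22 held in 1 of the 5 fits that leave out a library. Slc2a1, Hmox1, Srm, and Bax passed in 2 of these fits, Cdkn1a and Gadd45g in 3, and Ddx21 in 4.

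**Figure D3:**
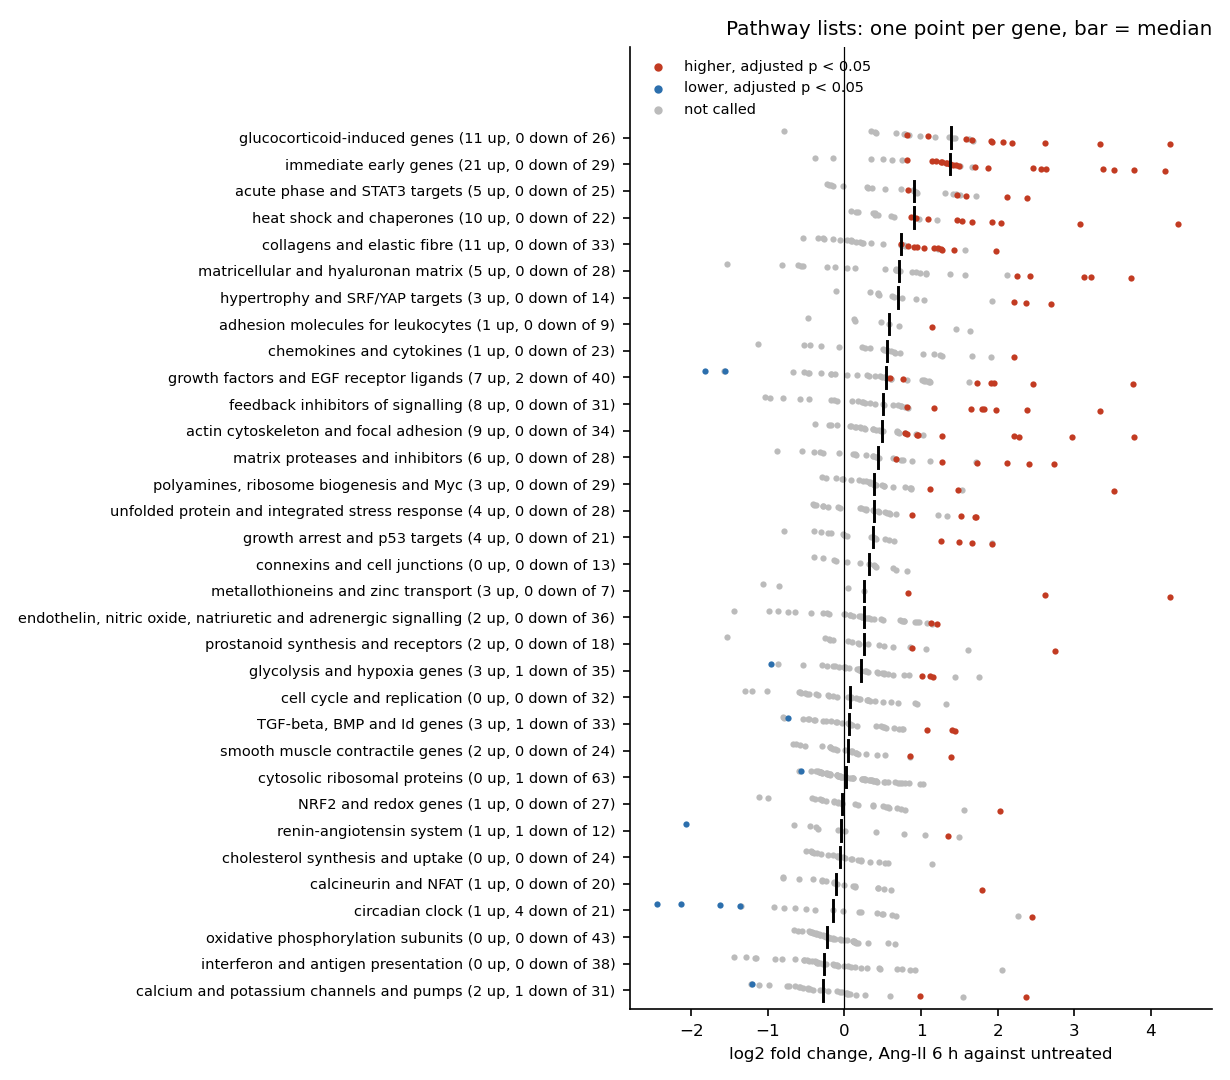
Log2 fold change at 6 h of every measured member (points) of the 33 pathway lists, with the list's median (bar) and the genes that passed the test in colour. Immediate early and glucocorticoid-induced genes have the highest medians of these lists (1.39 each), and calcium and potassium channels the lowest (-0.27).

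To place 6 h within the time course, the treated Cn-Ctl groups were compared with each other. Against untreated, 899 genes (6.23%) were called at 2 h and 810 (5.62%) at 24 h, comparisons that share the untreated libraries with the one at 6 h. Between 6 h and 2 h, which share none, 241 genes (1.67%) differed, of which 197 (1.37%) were lower and 44 (0.305%) higher at 6 h. Heat shock genes led the decline, with 10 of 22 lower at 6 h and 0 higher. Hspa1b fell from a mean of 2958 at 2 h to 199 at 6 h (log2 difference -3.94, SE 0.42, adjusted p 2e-05), Dnajb1 from 798 to 92.0 (-3.14, SE 0.33), and Bag3 from 634 to 137 (-2.23, SE 0.19, adjusted p 7.3e-07). The rise of these genes at 2 h had thus largely gone, whereas Hspb1 had means of 2200 and 2809 (0.40, SE 0.31, adjusted p 0.59) and Cryab of 996 and 1456 (0.54, SE 0.28). Of the immediate early genes 6 of 29 were lower than at 2 h, among them Atf3 (878 to 169.8, -2.36, SE 0.28), Nr4a3 (-1.51), and Klf6 (-0.87). Rcan1 was lower as well (384 to 130.5, -1.62, SE 0.33, adjusted p 0.01).

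Few genes were higher at 6 h than at 2 h. Neb (nebulin), a thin filament protein of skeletal muscle, went from a mean of 1.60 at 2 h to 13.6 at 6 h (log2 difference 2.64, SE 0.50), and it rose over untreated (2.10, adjusted p 0.035), a call that held in 1 of the 5 fits that leave out a library. Neb had 2.26 and 2.83 in the untreated libraries and 18.7, 6.63, and 15.5 at 6 h, highest in replicate 1, where the summed skeletal and cardiac muscle markers were also highest (273.9, against 11.47 to 46.55 in the other 4 libraries). The median log2 difference of those markers between 6 h and 2 h was 1.05, and their part in the rise of Neb was not tested. Others had been lowered at 2 h. Pde4a, a phosphodiesterase that breaks down cAMP, had means of 61.8 untreated, 26.6 at 2 h, and 80.3 at 6 h, and like Tmem94, Ypel3, Apbb1, and Pik3c2b it was called lower at 2 h and not called at 6 h. Grip2, a scaffold protein, was called at neither time against untreated (142, 88.5, and 225). Prg4 kept climbing in its means, from 23.1 at 2 h and 42.2 at 6 h to 91.4 at 24 h, though the steps did not pass (adjusted p 0.33 and 0.29). Of the 392 genes raised at 6 h, 30 had been higher at 2 h and 3 were higher at 6 h than at 2 h. Of the 180 lowered ones, 24 were lower at 6 h than at 2 h and 1 was higher. The count of 241 was 96 without 2 h replicate 1, 106 without 2 h replicate 2, 152 without 2 h replicate 3, and 119 without 6 h replicate 3.

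Between 6 h and 24 h, 183 genes (1.27%) differed, 121 (0.839%) lower and 62 (0.43%) higher at 24 h. Immediate early (9 of 29), glucocorticoid-induced (6 of 26), and heat shock genes (5 of 22) were lower, with 0 higher in each list. Hspb1 declined to a mean of 576 (-2.27, SE 0.35, adjusted p 0.0019), Cryab to 333 (-2.09, SE 0.32), and Btg2 from 252 to 79.9 (-1.72, SE 0.26). Ablim1, an actin-binding LIM protein that had risen at 6 h (0.94), declined from 210.4 to 84.3 (-1.30, SE 0.19). Endoplasmic reticulum and sterol genes went the other way: 8 of 28 unfolded protein response genes and 9 of 24 cholesterol genes were higher at 24 h than at 6 h, and 0 lower. Hyou1, a chaperone of the endoplasmic reticulum, went from 73.8 to 208 (1.47, SE 0.20, adjusted p 0.00083), Hspa5 from 512 to 1115 (1.13), and Manf from 74.9 to 164 (1.12). Of the sterol enzymes, Fdps went from 34.6 to 156 (2.19, SE 0.34), Cyp51 from 20.8 to 108 (2.44), and Idi1 from 18.8 to 84.6 (2.14). Cyp51 and Idi1 had also been higher at 2 h than at 6 h (adjusted p 0.0099 and 0.0089), so that 6 h was the low point of the treated times for both. Igfbp2, which binds insulin-like growth factors, had the highest log2 difference of the 62, from 17.1 to 253 (3.82, SE 0.52, adjusted p 0.00083). The 2 libraries at 24 h had a median absolute log2 difference of 0.454, and the 183 calls were 18 without 24 h replicate 3, 397 without 24 h replicate 2, 81 without 6 h replicate 2, and 0 (1056 at an unadjusted p under 0.05) when only these groups entered the limma fit.

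**Figure D4:**
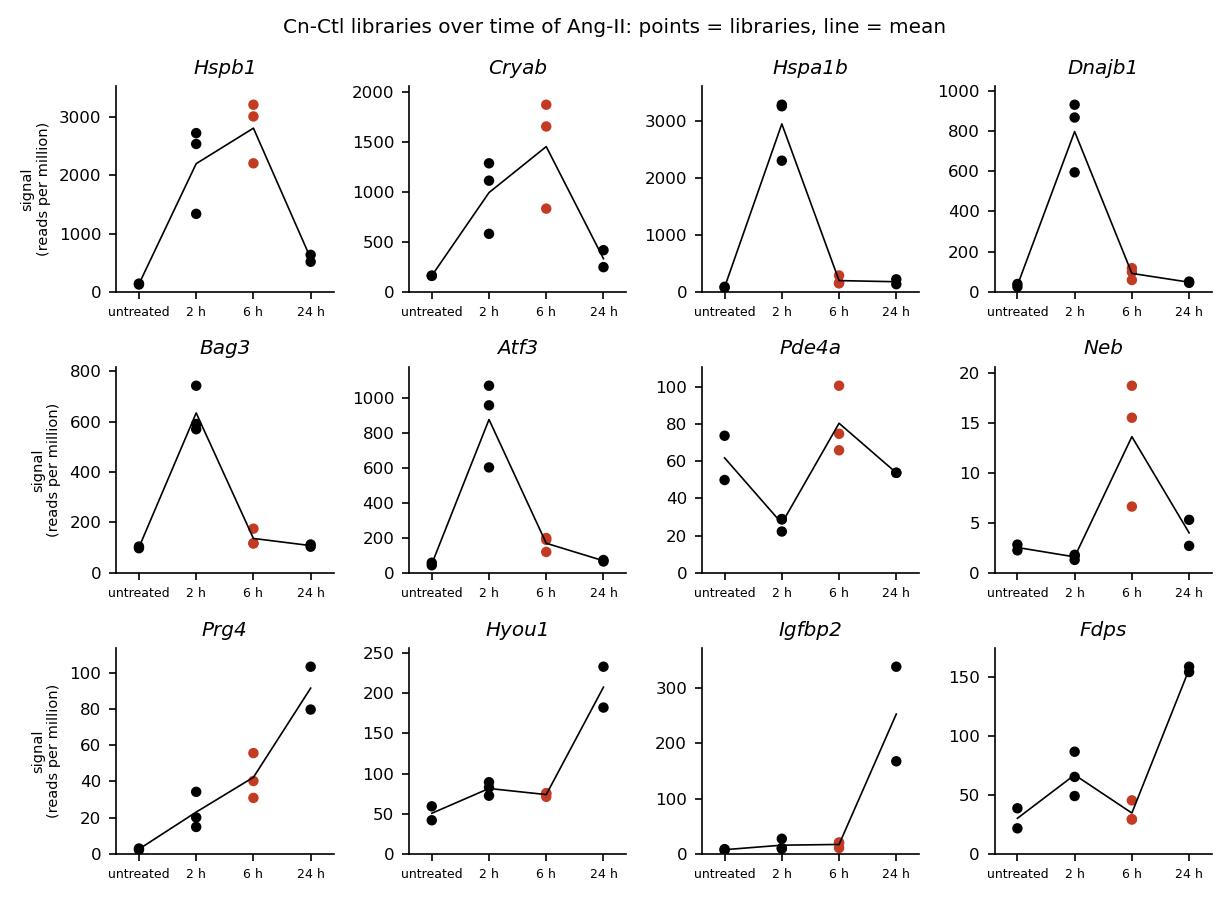
Signal of 12 genes in each Cn-Ctl library (linear axes from 0), untreated and at 2, 6, and 24 h of Ang-II, with lines through the group means and 6 h in colour. Hspb1 and Cryab stay high from 2 to 6 h, Hspa1b, Dnajb1, Bag3, and Atf3 fall back by 6 h, and Hyou1, Igfbp2, and Fdps rise after it.

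The response at 6 h was compared between the genotypes as the difference in response between Cn-Ctl and SM-Cn-/- (limma interaction). Per the methods, treated Cn-Ctl mice were kept only above 130 mmHg, whereas SM-Cn-/- mice were not selected on pressure and none had a raised one. Loss of smooth muscle Cn, blood pressure, and selection on pressure therefore cannot be told apart. The difference passed for 9 genes (0.0624%), all with the higher response in Cn-Ctl, and for 873 at an unadjusted p under 0.05. Fosb had group means of 13.0 and 145 in Cn-Ctl and of 14.3 and 5.89 in SM-Cn-/-, untreated and at 6 h, so that it rose in one genotype while the log2 fold change in the other was -1.37 (difference 4.74, SE 0.73, adjusted p 0.015). Cd44 went from 44.1 to 223 in Cn-Ctl and from 53.5 to 42.7 in SM-Cn-/- (difference 2.58, SE 0.40, adjusted p 0.015). Atf3 went from 51.1 to 169.8 and from 59.8 to 32.8 (2.57, SE 0.42, adjusted p 0.022). In these 3 genes the mean of SM-Cn-/- was lower at 6 h than untreated.

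Cryab had means of 113 and 188 in SM-Cn-/- (log2 fold change 0.72, adjusted p 0.2), against 3.08 in Cn-Ctl (difference 2.36, SE 0.43, adjusted p 0.028). Anxa2 (annexin A2), a calcium-dependent membrane protein, went from 291 to 753 in Cn-Ctl and from 355 to 375 in SM-Cn-/- (1.28, SE 0.23), Dnaja4, an HSP40, from 23.9 to 80.1 and from 27.0 to 29.4 (1.61, SE 0.29), and Cyr61 from 247 to 1268 and from 283 to 390 (1.93, SE 0.36, adjusted p 0.043). Rgs4, which limits Gq signalling, was the exception to a rise in Cn-Ctl, with 114 and 179 in the untreated libraries and 125, 141, and 116 at 6 h (-0.17, SE 0.23). In SM-Cn-/- its mean dropped from 124 to 32.4 (-1.93, adjusted p 1.4e-05), and the difference was 1.76 (SE 0.31, adjusted p 0.028).

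Rcan1 (difference 2.36, SE 0.49, adjusted p 0.089), Thbs1 (2.81, adjusted p 0.06), Flnc (2.91, adjusted p 0.089), and Col15a1 (1.44, adjusted p 0.066) fell just short of the threshold. Genes that passed in both genotypes without a called difference include Mt2 (3.72 in SM-Cn-/-, difference 0.54, SE 0.48), Fkbp5 (3.03, difference -0.83, SE 0.42), Lrrc17 (-2.57, difference -0.71, SE 0.51), and Cacna1c (-1.33, adjusted p 0.00016, difference 0.13, SE 0.26). Ppp3r1 had means of 67.3 and 56.5 in SM-Cn-/-, against 91.3 and 87.5 in Cn-Ctl, and a gene-level signal cannot show the loss of the deleted part. The 9 calls were 0 without Cn-Ctl untreated replicate 2, SM-Cn-/- untreated replicate 1, or SM-Cn-/- 6 h replicate 3, 2 without Cn-Ctl untreated replicate 3, 6 h replicate 2, or 6 h replicate 3, 4 without SM-Cn-/- untreated replicate 2 or 6 h replicate 2, and 19 without SM-Cn-/- 6 h replicate 1.

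**Figure D5:**
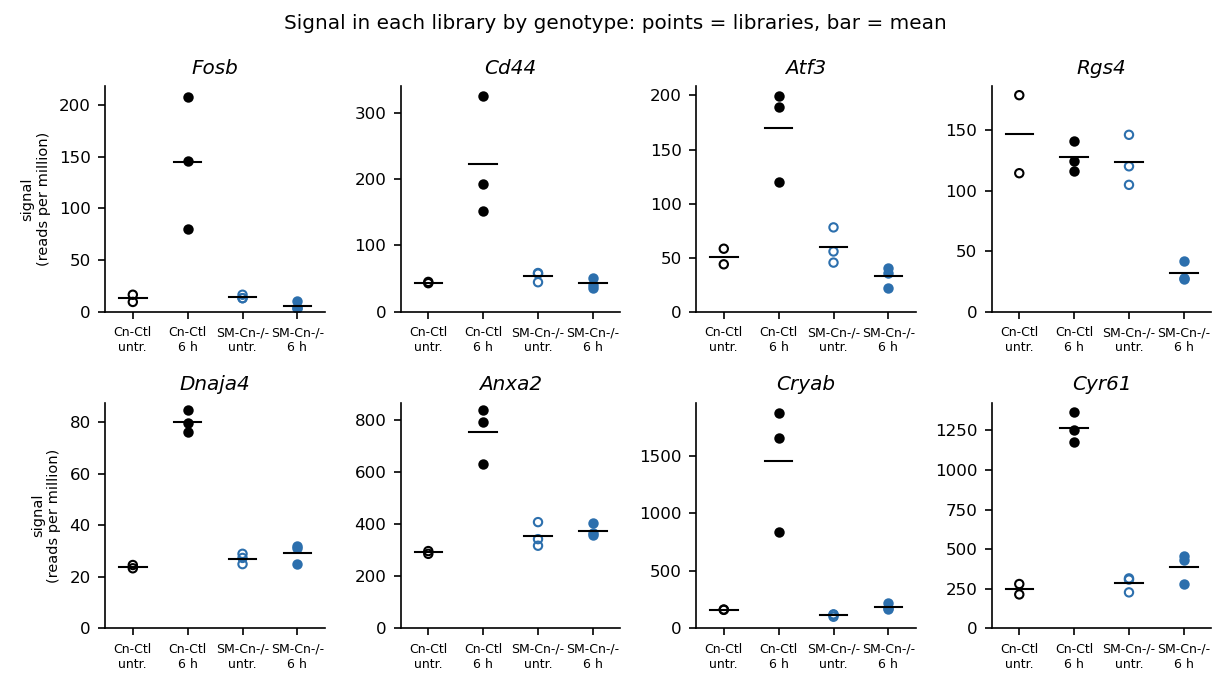
Signal in each library (linear axes from 0) of 8 genes whose 6 h response differed between the genotypes, for Cn-Ctl and SM-Cn-/-, untreated and at 6 h of Ang-II. Points are libraries (n = 2 or 3), and bars are group means. Rgs4 falls from a mean of 124 to 32.4 in SM-Cn-/-, whereas the other 7 rise in Cn-Ctl.

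The identity of the tissue was checked with markers. Smooth muscle markers were abundant, with a summed signal of 29320 and 28680 in the untreated libraries and 32540, 32490, and 34490 at 6 h, and endothelial markers came to 475.1 to 585.8 and 726.3 to 787.1, with Nos3 called among 12. Markers of adventitial fibroblasts, a layer that had been stripped, summed to 2713 and 1580 untreated and to 5430, 4042, and 2680 at 6 h, and 2 of 10 rose: Pi16 (111 and 81.1 against 370.2, 212, and 232, log2 fold change 1.47, SE 0.25) and Serpinf1 (1.57, SE 0.32). The macrophage markers summed to 141.2 and 102.1 untreated and to 435, 218, and 208.6 at 6 h, and 3 of 11 rose, the complement genes C1qa (4.15 and 7.76 against 27.3, 16, and 31.5, 1.98, SE 0.35), C1qb (1.63), and C1qc (1.32). None of these 5 calls held in all 5 fits that leave out a library. The fibroblast sum of 6 h replicate 3 lay within the untreated range, those of the other treated libraries above it, and no marker of either list was at 0 reads in all libraries of a group. The part of either list in the rises of the collagen and matrix genes above was not tested. There were 0 calls in this limma fit, in which 3.97% of all genes were called, among markers of neutrophils (4 of 10 measured), lymphocytes (8), blood (9), adipose tissue (12), skeletal and cardiac muscle (11), and nerve (8), although their sums varied by library. Blood markers summed to 35.17 and 194.3 untreated and 601.6, 537.7, and 77.27 at 6 h, adipose markers to 1412 and 2044 against 3690, 1065, and 2444, and skeletal and cardiac muscle markers reached 273.9 in 6 h replicate 1, whereas the other 4 libraries had 11.47 to 46.55.

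Of 2978 genes that are not protein-coding or not in the annotation, 44 (1.48%) were called in a fit over all 17402 genes, 28 higher and 16 lower. The fits that leave out a library covered protein-coding genes only, so whether these calls are stable is not known. Among the rises were 3 imprinted long non-coding RNAs of the Dlk1-Dio3 region on chromosome 12, whose other transcripts were not counted. Rian (chr12:109603940-109661716, plus strand, GRCm38) went from 68.0 and 82.6 to 321, 426, and 258 (log2 fold change 2.12, SE 0.23, adjusted p 1e-05), Meg3 (chr12:109541001-109571726, plus strand) from 221 and 286 to 592, 658, and 1307 (1.67, SE 0.42), and Mirg (chr12:109729764-109749460, plus strand) from 3.71 and 9.76 to 27.7, 22.2, and 56.0 (2.33, SE 0.57). No treated library overlapped the untreated ones in any of them. Mir22hg, the host transcript of miR-22, rose from 100 and 90.4 to 194, 202, and 248 (1.164, SE 0.18, adjusted p 0.00052). The smallest p belonged to Gm45551, an unprocessed pseudogene (373 and 379 against 3066, 3164, and 2241, 2.89, SE 0.26, adjusted p 8.3e-07), followed by the lincRNAs Gm20186 (3.19) and Gm12840 (2.94). Reads of pseudogenes may be shared with the parent gene. Of the 44, 10 overlap a tested protein-coding gene and 3 a called one, among them Gm15270 with Ctgf and Gm45774, listed as antisense to Mt2, and the strand setting of the counting is not given in the sources used here, so reads of such pairs cannot be told apart. The genes of this paragraph were chosen after their values were seen.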

How the data were processed

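RNA was sequenced from 40 pools of mouse aorta, of which the 22 libraries of the genotype experiment were used here. The authors aligned reads with Bowtie 0.12.7 and assigned them to transcripts with RSEM 1.16 (GRCm38 in the submitters' processing notes), kept RNA with an integrity number of at least 7, and discarded 1 untreated Cn-Ctl replicate, which was not analysed here. The deposited unit, signal, is the authors' assigned reads plus 0.5 over a scaled library size, on the CPM scale, and 100% of the values of the 22 libraries came out as whole reads (tolerance 0.01). Assigned reads ran from 3401706 to 6609595 in the 5 libraries compared. Log2(signal + 0.5) was fitted with limma 3.58.1 (R 4.3.3) over all 8 groups for protein-coding genes of GENCODE M21 with a signal of at least 1 in at least 2 libraries (14424 of 17402 genes, none removed by the filter), two-sided, with Benjamini-Hochberg adjustment over all genes. Fold changes are on the log2(signal + 0.5) scale, which understates changes of low genes. The table of a second experiment was not used. The pipeline was tested on simulated data. edgeR 4.0.16 and DESeq2 1.42.0 on the recovered reads, other pseudocounts, filters, and scalings, a replicate block, and fits without single libraries were alternatives. Folds against a group at 0 reads are bounds from 3 reads per library, which cover counting error only. Promoters were matched by symbol (11151 of 14424 genes). Genes named were the 15 highest and 15 lowest changes without overlap and with a mean signal of at least 5 in a group, list members with the smallest p (at most 6 a list) or that define a list's role, Cn genes, and the 8 smallest p-values each way in the other comparisons, and further list members were named after their values were seen. Members and lists were chosen with earlier results of these data known. Some genes within this rule were left out of the text.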

Additional observations from a re-analysis of the deposited data

Results flagged for a closer look

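The response at 6 h differed between the genotypes, in a test of the difference itself (limma interaction, adjusted p under 0.05), for the 8 genes that follow, each with its difference in log2 fold change, Cn-Ctl minus SM-Cn-/-. The difference was 4.74 for Fosb, 2.58 for Cd44, 2.57 for Atf3, 2.36 for Cryab, 1.93 for Cyr61, 1.76 for Rgs4, 1.61 for Dnaja4, and 1.28 for Anxa2. No group of the comparison has 4 or more libraries, so single libraries were not tested as outliers.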

How the results depend on the processing

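The counts of called genes rested on few libraries. When only the groups compared entered the limma fit, 131 genes were called at 6 h against untreated, 60 against 2 h, 0 between 24 h and 6 h (1056 at an unadjusted p under 0.05), and 1 for the difference between genotypes, and the lists gave 13 immediate early, 6 heat shock, 4 actin-associated, and 2 collagen rises and 2 clock falls. DESeq2 called 947, 532, 411, and 42 genes in the 4 comparisons and 16 actin-associated rises, and edgeR called 535, 188, 131, and 5. Quantile normalization left 105 calls against 2 h. Leaving out 1 library at a time gave 175 to 628 calls against untreated, 96 to 203 against 2 h, 18 to 397 between 24 h and 6 h, and 0 to 19 for the genotypes. The rises then numbered 9 to 19 for immediate early, 7 to 13 for glucocorticoid-induced, 5 to 9 for heat shock, 3 to 10 for actin-associated, and 4 to 11 for collagen genes, and the clock falls 2 to 4. The cause of these differences was not tested, apart from the smaller number of libraries in such fits. Where 1 library of an arm remained, it was assumed to vary like the other groups.

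Of 572 calls, the same gene was called in 513 with edgeR, 563 with DESeq2, 520 with quantile normalization, 130 with only the groups compared in the fit, 163 without untreated replicate 2, 182 without untreated replicate 3, and 326 without 6 h replicate 3. Among 198 named genes 146 were called, and no called direction was reversed under any alternative run. Of the 572 calls, 560 had no overlap between the groups and a mean signal of at least 5 in a group. For such genes, leaving out a library cannot reverse the direction, so those fits add no support here. The alternatives other than leaving out a library or a group moved at most 10 of the named genes below the threshold. A block on the replicate number gave 679 calls against untreated, 376 against 2 h, 226 between 24 h and 6 h, and 9 for the genotypes. Libraries with the same number deviated together only weakly (r of 0.169 and 0.208 for the 2 pairs of this comparison, and on average 0.047 over 71 pairs of the experiment against -0.023 over 140 pairs with different numbers), so the samples were taken to share only a number. At this depth 299 genes had 0 reads in every library of one group, 8 of them called, and 10 of 43 lists hold such a gene. With these genes set to their bounds, 2 list medians moved by over 0.1, those of skeletal and cardiac muscle (0.99 to 0.727) and nerve markers (0.332 to 0.162).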

Other observations

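Of the 572 called genes, 134 belonged to a gene list and 438 to none. Among the latter, chosen here for small p-values after their values were seen, several act at the cell surface and in the matrix. Tgm2, the transglutaminase that crosslinks matrix proteins, was abundant and rose from 621 and 618 in the untreated libraries to 1962, 3099, and 4658 at 6 h (log2 fold change 2.30, SE 0.32, adjusted p 0.00016 by limma). Sdc4 (syndecan 4), a proteoglycan of focal adhesions, rose from 157 and 175 to 368, 415, and 519 (1.37, SE 0.17). Lyve1, a hyaluronan receptor of lymphatic vessels and some macrophages, rose from 20.2 and 28.0 to 94.3, 61.3, and 67.5 (1.60, SE 0.24), and Ccl6, a chemokine of macrophages, from 7.50 and 9.76 to 64.5, 36.0, and 40.0 (2.34, SE 0.31). The treated libraries lay above the untreated ones in each of these 4 genes.

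Metabolic genes outside the lists changed in both directions. The mitochondrial folate enzyme Mthfd2 rose from 9.25 and 8.12 to 42.9, 70.0, and 40.9 (2.45, SE 0.35), the uncoupling protein Ucp2 by 2.11 (SE 0.29), and Por, which passes electrons to cytochrome P450 enzymes, by 1.60 (SE 0.22). Spns2, which exports the sphingosine-1-phosphate that Sphk1 makes, rose from 7.94 and 7.03 to 34.0, 37.2, and 49.1 (2.33, SE 0.31). Thrb, a thyroid hormone receptor, fell from 149 and 152 to 48.1, 39.0, and 47.8 (-1.74, SE 0.22, adjusted p 4.9e-05), the glycogen phosphorylase kinase subunit Phkg1 from 94.5 and 82.6 to 26.2, 22.2, and 24.3 (-1.85, SE 0.25), and Sord, sorbitol dehydrogenase, from 79.9 and 93.2 to 44.4, 33.2, and 29.0 (-1.29, SE 0.21). No library of one group reached the range of the other in these genes.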
